A study of Mus musculus with 6 samples.

Results

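The genes described here encode the enzymes and regulators of cholesterol and fatty acid synthesis. They were a list of 34 gene symbols, of 57010 genes in the deposited table and 16909 genes with a count. The list held 18 sterol enzymes from the mevalonate pathway to cholesterol, 6 genes that regulate sterol synthesis or move sterols, and 10 enzymes that make, lengthen or desaturate fatty acids. Symbols were matched to gene identifiers through the authors' deposited table for 29 of them, and through a reference table of gene names for Mvk, Pmvk, Mvd, Tm7sf2 and Hsd17b7. The rule that chose them named symbols and used no measured value, but the list was drawn up with earlier results of these data known.

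Both pathways start from cytosolic acetyl-CoA. The sterol branch condenses it to mevalonate, isoprenoid units, squalene, lanosterol and cholesterol, while the fatty acid branch carboxylates it to malonyl-CoA and builds palmitate, which elongases and desaturases then modify. SREBP transcription factors switch on both branches. SCAP escorts them out of the endoplasmic reticulum when sterols are scarce, and the INSIG proteins hold them back when sterols are plentiful. In the lung, alveolar type II cells use newly made lipid for surfactant.

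The 6 libraries came, per the labels, from wild type MLE-12, an immortalised line of mouse lung epithelial origin. All cells spent 12 h in 1% oxygen and 4 h in reoxygenation, a culture model of ischaemia and reperfusion (I/R). The 3 libraries named I/R had no drug, and the 3 named I/R + Dex came from cells given 10 µM dexmedetomidine, an alpha-2 adrenergic agonist used as a sedative, for 12 h before hypoxia. The labels place all 6 in the same batch, and cells without hypoxia were not analysed here.

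Libraries held 2333546 to 2941989 counts in total. A count of 3, taken as the floor of detection, was 1.02 to 1.29 CPM, which are counts scaled to a common library size. Floors cover counting error only. The labelled cell type was checked against its markers. Of 12 epithelial and alveolar type II markers, 7 had 0 counts in all libraries, among them Krt8, Krt18, Sftpb and Sftpc. Their summed level was 8.5 to 17.6 CPM under I/R alone and 3.86 to 18.6 CPM after dexmedetomidine. Abca3 was the epithelial marker with a count in all 6 libraries, 180 in total. Summed over 8 mesenchymal markers, the level was 1820 to 1870 CPM under I/R alone and 1620 to 1940 CPM after dexmedetomidine. Most of this sum was Sparc, Vim and Fn1, at means of 898, 479 and 389 CPM under I/R alone, while Pdgfrb had 4 counts in total. The epithelial identity therefore rests on the labels, and the part of cell identity in the results below was not tested.

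Of the 34 genes, none passed the threshold of an edgeR adjusted p of 0.05, and all 19 that could be tested had an adjusted p of 1. Across all tested genes the same fit called 5 of 7412, or 0.0675%. At an unadjusted p under 0.05 there was 1 gene of the list, Acaca, the acetyl-CoA carboxylase, against 3.39% of all tested genes (251). DESeq2 and limma voom also called 0 genes of the list, while over all genes they called 14 and 0. Testing needed enough counts for edgeR's expression filter, which 5 of 18 sterol enzymes, 5 of 6 regulators and 9 of 10 fatty acid enzymes had. The 15 genes left out by the filter are given below by their counts. In bulk RNA, fewer cells of a kind and less RNA per cell cannot be told apart.

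The sterol regulatory element and the CCAAT box are letters that SREBP and its partner NF-Y are known to bind. The promoters of 2 genes are shown, that of Hmgcs1 because its window alone in the list held the element, and that of Acly because it had the highest level. Hmgcs1 makes the precursor of mevalonate, and Acly, the ATP-citrate lyase, makes cytosolic acetyl-CoA from citrate for both branches. Each window runs from 250 bases before the start to 50 bases after it, from RefSeq on GRCm38.p6, written 5′ to 3′ on the gene's strand. Hmgcs1 lies at chr13:119690101-119690400 on the plus strand, and Acly at chr11:100527951-100528250 on the minus strand. Capitals mark a sterol regulatory element, TCACNCCAC, and CCAAT boxes, CCAAT, on either strand, so that ATTGG is a CCAAT box on the opposite strand.
Hmgcs1: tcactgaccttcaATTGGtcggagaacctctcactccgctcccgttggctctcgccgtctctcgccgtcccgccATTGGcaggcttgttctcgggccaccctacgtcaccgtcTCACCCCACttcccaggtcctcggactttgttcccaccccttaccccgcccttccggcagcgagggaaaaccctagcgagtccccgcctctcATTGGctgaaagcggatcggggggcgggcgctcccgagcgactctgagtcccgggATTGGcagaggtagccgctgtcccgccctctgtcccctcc
Acly: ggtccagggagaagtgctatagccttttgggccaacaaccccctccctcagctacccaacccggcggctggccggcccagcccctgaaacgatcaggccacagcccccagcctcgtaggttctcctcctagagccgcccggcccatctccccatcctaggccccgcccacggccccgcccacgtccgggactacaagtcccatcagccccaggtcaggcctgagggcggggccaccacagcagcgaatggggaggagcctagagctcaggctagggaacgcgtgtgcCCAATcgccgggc

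The Hmgcs1 window held TCACCCCAC 137 bases before the start and 4 CCAAT boxes. The Acly window held 1 CCAAT box after the start and no sterol regulatory element in these letters. RefSeq windows were held for 27 of the 34 genes, 36 windows in all. The element was in 1 of these 36 windows (2.78%), against 1.24% of 32851 windows of the same length. CCAAT boxes were in 23 of 36 windows (63.9%), against 37.4% of all windows. By branch they were in 19 of 28 sterol windows (67.9%) and in 4 of only 8 fatty acid windows (50%). The GC box GGGCGG, searched on both strands and counted whether or not it overlapped another motif, was in 75% of the windows and in 67.2% of the windows of all tested genes. A match is a description of the letters and not a bound site.

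Levels spanned a wide range, and the list was headed by Acly. Compared per transcript length as FPKM (fragments scaled by length and library size), Acly had a mean level of 124 over the 6 libraries. The next were Insig2, which retains SREBP in the endoplasmic reticulum, at 15.3 FPKM, Idi1, the isopentenyl diphosphate isomerase, at 10.4 FPKM, the transcription factor gene Srebf2 at 9.74 FPKM, Acaca at 9.41 FPKM and the fatty acid elongase Elovl6 at 6.3 FPKM. Within I/R, Idi1 at 11.2 ± 1.98, Srebf2 at 10.4 ± 0.702 and Acaca at 10.4 ± 1.19 FPKM (SD, n = 3) lay within each other's spread. Only these 6 genes reached a mean of 5 FPKM. A mean under 1 FPKM was found for 16 of the 34, and 18 had a count in every library.

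**Figure D1:**
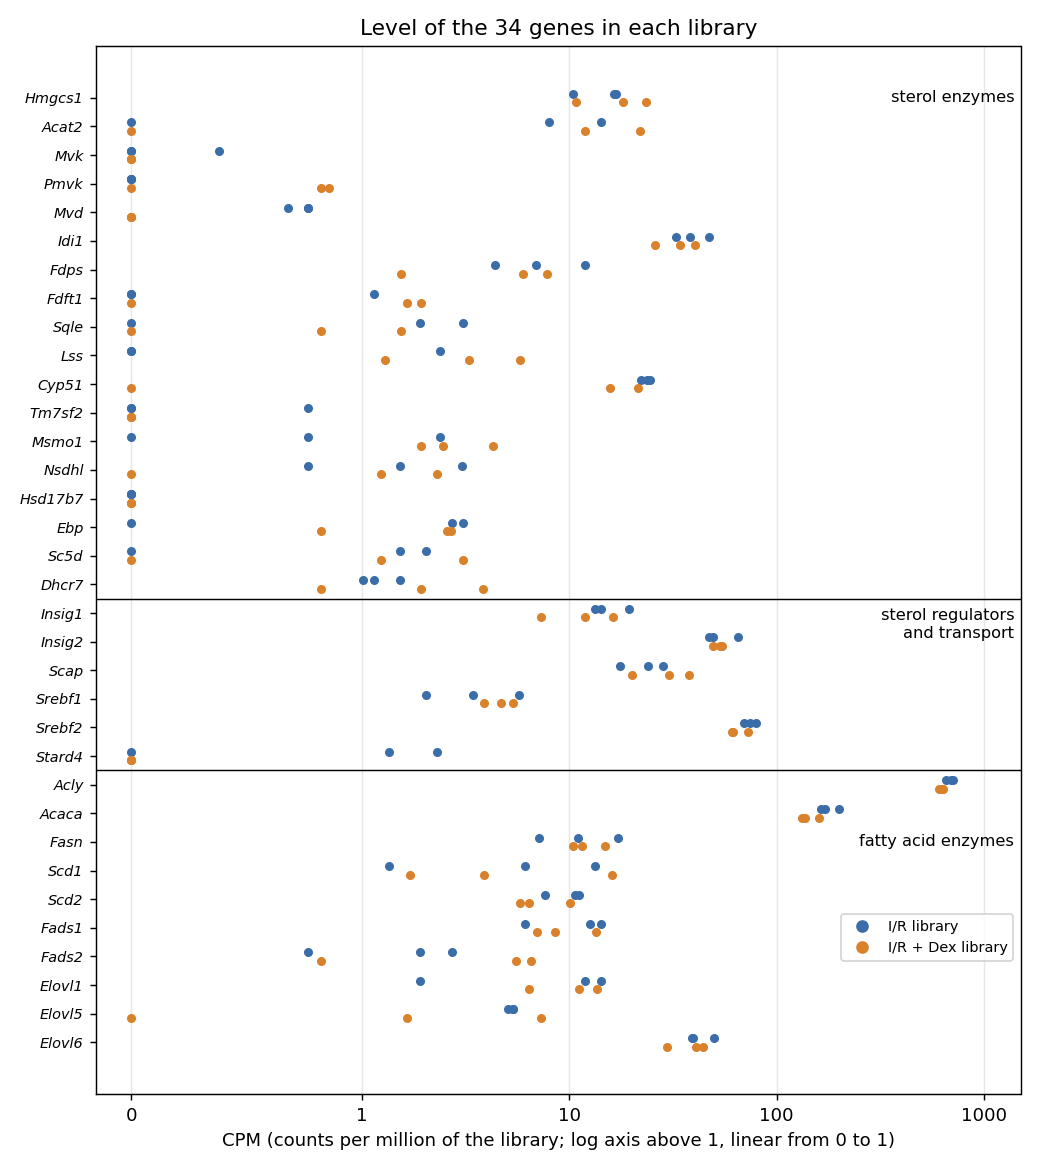
Level of each of the 34 genes in each library, in CPM (horizontal axis, logarithmic above 1 and linear from 0 to 1), with 1 point per library coloured by group. Acly sits at 610 to 711 CPM and Acaca at 132 to 200 CPM, while 17 genes of the list average under 5 CPM.

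The fatty acid branch begins with Acly. It spans 100367179 to 100418826 on the minus strand of chromosome 11 (GRCm39, from the transcripts in the authors' deposited table). Its counts were 1802, 2092 and 1707 under I/R alone and 1650, 1424 and 1514 after dexmedetomidine. Scaled to the library this was 691, 711 and 654 CPM against 638, 610 and 625 CPM. Every I/R + Dex library lay below every I/R library, by a small margin. The means were 685 ± 28.8 and 625 ± 13.8 CPM (SD, n = 3). The edgeR log2 fold change was -0.13 (SE 0.06, 95% interval -0.27 to 0.01), with an unadjusted p of 0.0634 and an adjusted p of 1, so the difference did not pass the test.

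Acaca catalyses the committed step, from acetyl-CoA to malonyl-CoA. It spans 84020498 to 84292477 on the plus strand of chromosome 11 (GRCm39, same table). Its counts were 446, 589 and 429 under I/R alone and 413, 319 and 320 after dexmedetomidine, or 171, 200 and 164 CPM against 160, 137 and 132 CPM. The groups did not overlap, but the lowest I/R library and the highest I/R + Dex library were close. The means were 179 ± 19 and 143 ± 14.7 CPM (SD, n = 3). The edgeR log2 fold change was -0.32 (SE 0.12, 95% interval -0.60 to -0.03), with an unadjusted p of 0.0344 and an adjusted p of 1. Without I/R replicate 2, the highest library, it was -0.22.

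A near-identical copy of Acaca took more counts than Acaca itself. Gm5182, a processed pseudogene on chromosome 12, aligned to bases 1430 to 7546 of the transcript Acaca-202 of chromosome 11, which has 9513 bases and a coding sequence from base 508 to 7542. Over 6118 alignment columns there were 20 substitutions and 29 gap columns, an identity of 99.2%. Of the 5969 stretches of 150 bases in the aligned part, 53.1% were identical in both genes. A stretch of 60 bases from the coding sequence is printed, bases 4817 to 4876 of Acaca-202 in the GENCODE vM21 transcripts. The 2 differing positions are in capitals. No ungapped coding stretch of this length held more substitutions, so it is not a typical one.
Acaca: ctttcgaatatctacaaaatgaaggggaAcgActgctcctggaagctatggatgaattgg
Gm5182: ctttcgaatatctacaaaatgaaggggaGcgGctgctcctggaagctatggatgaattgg

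Gm5182 had 765, 971 and 936 counts under I/R alone and 777, 693 and 761 after dexmedetomidine. It held 66.1% of the counts of the pair. Its mean was 327 ± 32.8 CPM under I/R alone and 304 ± 9.21 CPM after dexmedetomidine (SD, n = 3), and its edgeR log2 fold change was -0.10 (SE 0.09, unadjusted p 0.306, adjusted p 1). The groups of Gm5182 overlapped. How reads that match both were counted was not stated (not given in the sources used here), so the level of Acaca is uncertain. The summed counts of both genes were 1211, 1560 and 1365 under I/R alone and 1190, 1012 and 1081 after dexmedetomidine, or 506 ± 36.2 against 447 ± 13.2 CPM (SD, n = 3). With the counts added, the edgeR log2 fold change was -0.17 (SE 0.08, 95% interval -0.35 to 0.00), with an unadjusted p of 0.0531 and an adjusted p of 1.

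**Figure D2:**
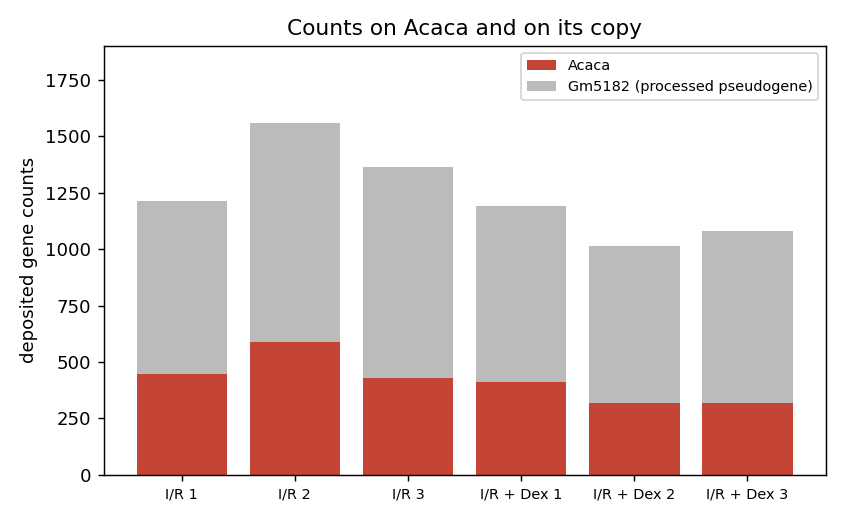
Deposited gene counts (vertical axis, stacked bars from 0) of Acaca and of its copy Gm5182 in each of the 6 libraries. The copy is the larger share of each bar, with 693 to 971 counts against 319 to 589 for Acaca.

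Fasn, the synthase that builds palmitate from malonyl-CoA, had far fewer counts than the enzymes before it. It had 45, 21 and 29 counts under I/R alone and 27, 27 and 36 after dexmedetomidine, with means of 11.8 ± 5.1 and 12.3 ± 2.3 CPM (SD, n = 3). The groups overlapped, and the log2 fold change was 0.07 (SE 0.39).

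The desaturases insert double bonds, Scd1 and Scd2 into saturated and Fads1 and Fads2 into polyunsaturated fatty acids. Scd1 had 16, 4 and 35 counts under I/R alone and 10, 4 and 39 after dexmedetomidine. Both groups held 1 library with 4 counts and 1 with over 30, and the 95% interval of the log2 fold change ran from -2.31 to 2.44. Scd2 had 28, 33 and 20 counts against 26, 15 and 14, with a log2 fold change of -0.40 (SE 0.38). These 2 paralogs share 95.5% identity over 623 bases, so their separation depends on the counting. Fads1 had 16 to 37 counts under I/R alone and 17 to 35 after dexmedetomidine. Fads2 had 5, 8 and 2 counts under I/R alone and 17, 13 and 2 after dexmedetomidine and was not tested.

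The elongases add carbon to fatty acids, Elovl6 acting on saturated and monounsaturated chains of moderate length, Elovl5 on polyunsaturated ones and Elovl1 on very long saturated ones. Elovl6 had 131, 116 and 102 counts under I/R alone and 114, 95 and 72 after dexmedetomidine. The means of 42.9 ± 6.34 and 38.2 ± 7.49 CPM (SD, n = 3) lay within the spread of the libraries, and the edgeR log2 fold change was -0.16 (SE 0.21, 95% interval -0.66 to 0.33, unadjusted p 0.469, adjusted p 1). Elovl5 had 14, 15 and 14 counts under I/R alone and 19, 0 and 4 after dexmedetomidine. Its I/R libraries were nearly level, whereas the I/R + Dex libraries ran from above them to 0. Elovl1 had 5, 42 and 31 counts against 29, 15 and 33.

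In the sterol branch, 4 of the 7 enzymes up to farnesyl diphosphate had enough counts to be tested. Hmgcs1 had 44, 31 and 43 counts under I/R alone and 28, 55 and 44 after dexmedetomidine, with a log2 fold change of 0.27 (SE 0.36). Its groups overlapped, and the library with the most counts was in I/R + Dex. Idi1, the sterol enzyme with the highest level, had 123, 113 and 85 counts under I/R alone and 105, 61 and 83 after dexmedetomidine. Its means of 39.4 ± 7.34 and 33.7 ± 7.25 CPM (SD, n = 3) overlapped, with an edgeR log2 fold change of -0.22 (SE 0.23, 95% interval -0.76 to 0.32, unadjusted p 0.366, adjusted p 1). A pseudogene, Idi1-ps1, is identical to it over 684 bases and had 2, 43 and 7 counts against 10, 7 and 6, so that 1 library, I/R replicate 2, held most of them. With these added, the log2 fold change of Idi1 was -0.30 (SE 0.23).

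Acat2, the cytosolic thiolase that joins acetyl-CoA units, had 21, 42 and 0 counts under I/R alone and 57, 0 and 29 after dexmedetomidine. A library at 0 in each group left its log2 fold change between -2.93 and 4.12. Fdps, which makes farnesyl diphosphate, had 31, 13 and 18 counts against 4, 14 and 19, with a log2 fold change of -0.58 (SE 0.66). Its pseudogenes Gm3571 and Gm5873 held 37.7% of the counts of the family, and with them added the value was -0.45 (SE 0.46). Mvd, the mevalonate diphosphate decarboxylase, had 2, 2 and 2 counts under I/R alone and 0, 0 and 0 after dexmedetomidine. The groups did not overlap, as for 3.38% of all genes with a count that were lower in I/R + Dex, but both were under the floor of 3 counts per library, so no fold is given. Mvk, the mevalonate kinase, had 1 count in all libraries together, and Pmvk, the phosphomevalonate kinase, had 4.

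From squalene to cholesterol the transcripts were near the limit of detection. Of the 11 enzymes of these steps, 10 averaged under 5 CPM and were not tested. Cyp51, the lanosterol demethylase, was the exception, with 58, 72 and 62 counts under I/R alone and 56, 0 and 38 after dexmedetomidine. The I/R libraries were close together, and the I/R + Dex libraries lay below them, by little in replicate 1 and with no count in replicate 2. The means were 23.5 ± 1.14 and 12.4 ± 11.2 CPM (SD, n = 3), and the edgeR log2 fold change was -0.91 (SE 0.99, 95% interval -3.29 to 1.47, unadjusted p 0.391, adjusted p 1). It was -0.34 without I/R + Dex replicate 2, the library at 0, and -1.57 without I/R + Dex replicate 1. It was -2.29 with limma voom, -2.14 on log2(FPKM + 0.1) with limma and -1.43 with the replicate number as a term, and its unadjusted p was 0.0996 or more in all 17 alternatives.

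A count of 0 in 1 library beside well filled ones was not particular to Cyp51. Over all tested genes, 37 of 7412 (0.499%) had 0 counts in 1 library and at least 20 in each of the other 5. In I/R + Dex replicate 2, which also had the lowest total count, 1.89% of tested genes were at 0, against 0.89% to 1.25% in the other libraries. Acat2, Cyp51 and Elovl5 were the genes of the list that were tested and at 0 there. The cause of these zeros was not tested.

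Among the 10 untested enzymes of the late sterol steps, Hsd17b7, a ketosteroid reductase, had 0 counts in all 6 libraries, and Tm7sf2, a sterol reductase, had 2 counts in total. Tm7sf2 shares 532 bases at 100% identity with the gene Vps51, which had 507 counts, so their separation depends on the counting. Fdft1, the squalene synthase, had 3, 0 and 0 counts under I/R alone and 5, 0 and 4 after dexmedetomidine. Sqle, the squalene epoxidase, had 8, 0 and 5 against 4, 0 and 2, and Lss, the lanosterol synthase, had 0, 7 and 0 against 15, 3 and 8. These values do not separate the groups, since each gene was at 0 in some library of I/R and no group stood clear of the other. Msmo1, Nsdhl, Ebp, Sc5d and Dhcr7, which act between lanosterol and cholesterol, had at most 10 counts in any library. None of them was called in the fits that did include them, without the filter or with DESeq2.

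All regulators but Stard4 had counts in all 6 libraries. Srebf2 encodes the SREBP form known for driving sterol genes, and had 194, 234 and 183 counts under I/R alone and 189, 142 and 150 after dexmedetomidine. Scaled to the library it had 74.4, 79.5 and 70.1 CPM against 73.1, 60.9 and 62 CPM, so that 1 library of I/R + Dex lay inside the range of I/R. The edgeR log2 fold change was -0.19 (SE 0.13, 95% interval -0.51 to 0.13, unadjusted p 0.203, adjusted p 1). Srebf1, whose products drive fatty acid genes in liver, had 6 to 15 counts under I/R alone and 10 to 13 after dexmedetomidine. Scap, the escort protein, had 46, 71 and 74 counts against 98, 71 and 49, with a log2 fold change of 0.34 (SE 0.30).

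Insig2 had 129, 192 and 124 counts under I/R alone and 138, 115 and 132 after dexmedetomidine, or 54.1 ± 9.73 against 52.4 ± 2.75 CPM (SD, n = 3). The edgeR log2 fold change was -0.04 (SE 0.17, 95% interval -0.45 to 0.37, adjusted p 1). Insig1, an SREBP target that also retains SCAP, had 35, 57 and 37 counts against 42, 17 and 29, with a log2 fold change of -0.40 (SE 0.36). Both INSIG genes had overlapping groups. Stard4, a carrier of cholesterol between membranes, had 6, 4 and 0 counts under I/R alone and 0 in all 3 libraries with dexmedetomidine, and was not tested.

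**Figure D3:**
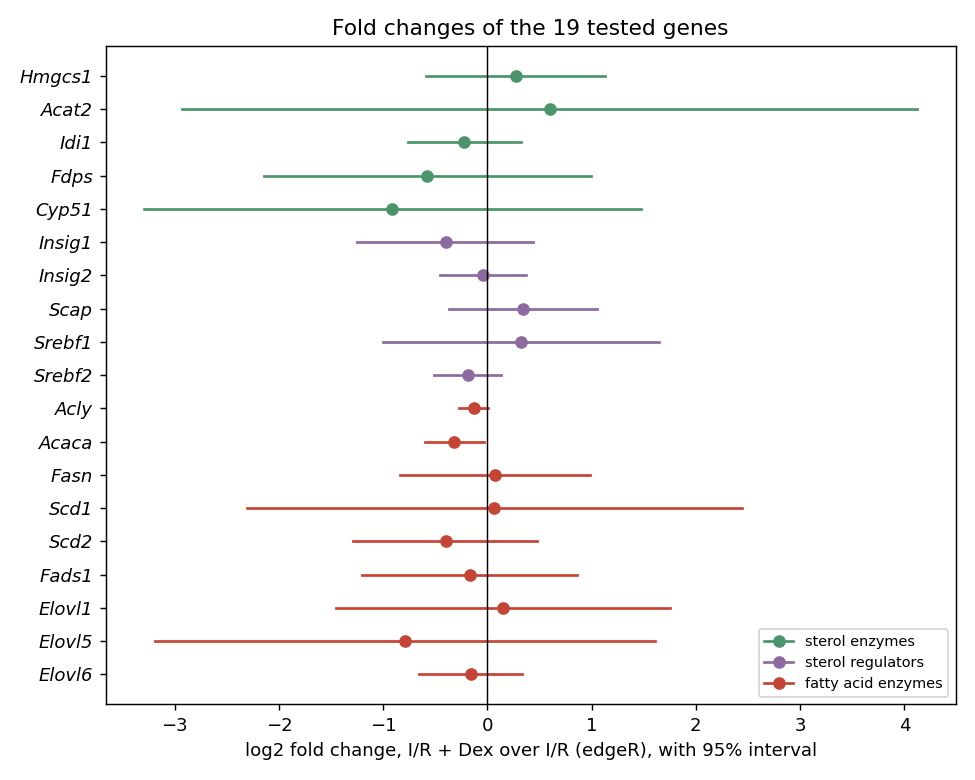
Log2 fold change, I/R + Dex against I/R, for the 19 tested genes (horizontal axis, edgeR), with 95% intervals and colour by role. The interval of Acaca, from -0.60 to -0.03, lies below 0 before adjustment, and those of Acat2, Cyp51, Elovl5 and Scd1 span more than 4 log2 units.

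Side by side, the fold changes of both branches lay around a median slightly below 0. Among the 10 tested genes of the sterol branch, 4 were above and 6 below 0, with a median log2 fold change of -0.12, or -0.22 for the enzymes and -0.04 for the regulators. Among the 9 tested fatty acid enzymes, 3 were above and 6 below 0, with a median of -0.16. Over all 7412 tested genes, 51.1% were below 0 and the median was -0.01. The sterol median changed sign, to 0.18, where genes with at least 1 CPM in 3 libraries were tested instead. The groups did not overlap for 3 of the 19 tested genes of the list, Cyp51, Acly and Acaca, all of them lower in I/R + Dex, against 4.94% of all tested genes lower and 4.38% higher without overlap.

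In summed CPM, which are not scaled by length, the branches were far apart, and the gap lay in Acly and Acaca. Summed over the 18 sterol enzymes the level was 120, 106 and 85.5 CPM under I/R alone and 118, 68.6 and 101 CPM after dexmedetomidine, or 104 ± 17.2 against 95.9 ± 25.1 CPM (SD, n = 3). These groups overlapped. Summed over the 10 fatty acid enzymes it was 962, 1010 and 922 CPM under I/R alone and 905, 828 and 847 CPM after dexmedetomidine, or 963 ± 41.5 against 860 ± 39.9 CPM (SD, n = 3), and every I/R + Dex library lay below every I/R library. Per length the sums were 158 ± 7.04 and 145 ± 4.81 FPKM (SD, n = 3), again without overlap. Most of this was Acly, at 129 ± 5.79 FPKM under I/R alone and 119 ± 1.31 FPKM after dexmedetomidine (SD, n = 3). Acaca added 10.4 ± 1.19 and 8.4 ± 0.756 FPKM (SD, n = 3), so per length the gap lay mainly in Acly. With TMM, DESeq2 or upper-quartile scaling, too, the fatty acid sum, Acly, Acaca and Cyp51 had no overlap and were lower in I/R + Dex. Acly and Acaca held 88.2% to 90.7% of the CPM sum. Without them the remaining fatty acid enzymes had 99.7, 93.8 and 103 CPM against 107, 81 and 89.6 CPM, and the groups overlapped. Their means of 99 ± 4.87 and 92.6 ± 13.3 CPM (SD, n = 3) were near those of the sterol enzymes.

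The balance between the branches did not separate the groups either. Per length, the summed FPKM of fatty acid enzymes over that of sterol enzymes was 4.93, 5.66 and 7.17 under I/R alone and 4.68, 8.09 and 5.36 after dexmedetomidine. The highest ratio came from I/R + Dex replicate 2, where Cyp51 and Acat2 were at 0. The fatty acid sum includes Acaca and Acly, which serves both branches. Without them it was 18.7 ± 2.02 FPKM under I/R alone and 18 ± 3.13 FPKM after dexmedetomidine (SD, n = 3). The sterol enzymes had 27.4 ± 5.28 and 25.5 ± 7.48 FPKM (SD, n = 3). The 6 regulators summed to 173 ± 16.4 CPM under I/R alone and 164 ± 18 CPM after dexmedetomidine (SD, n = 3), and these groups also overlapped.

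**Figure D4:**
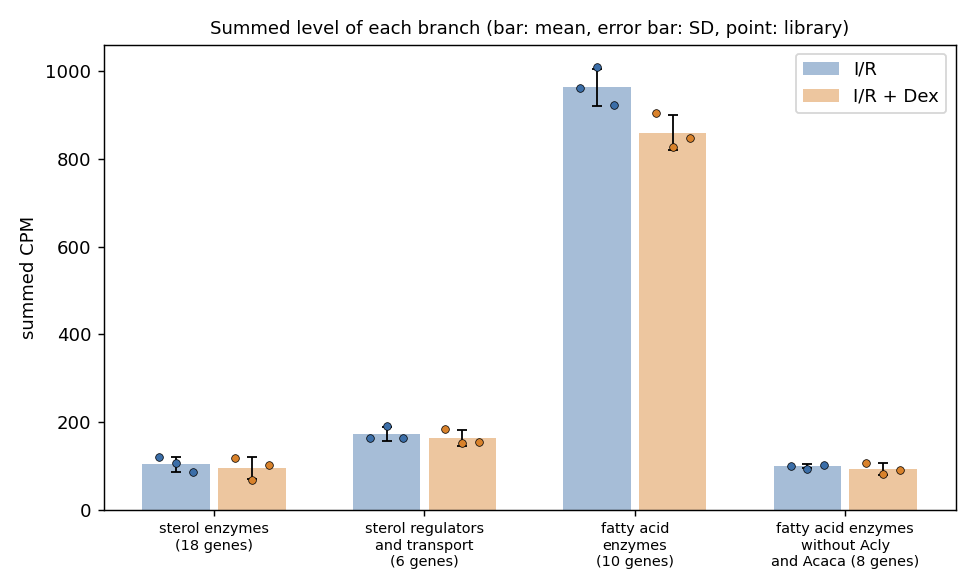
Summed CPM of the sterol enzymes, the regulators, the fatty acid enzymes and the fatty acid enzymes without Acly and Acaca (bars: mean, error bars: SD over 3 libraries, points: libraries). The groups are apart for the 10 fatty acid enzymes, 963 against 860 CPM, and overlap for the other sums.

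Transcripts held the counts of each gene unevenly. The genes of the list had 71 transcripts with a count, of which 20 from 18 genes could be tested. None of these passed an edgeR adjusted p of 0.05 or an unadjusted p under 0.05, against 0% and 2.92% of 9882 tested transcripts. DESeq2 called 0 transcripts of the list as well. Of all counts of the list, 97.7% were on transcripts annotated as protein coding and 1.89% on transcripts with a retained intron, which are not made into the full protein. For some genes with few counts the share was larger. Retained-intron transcripts held 89.5% of the counts of Sqle, 81.8% of those of Lss and 86.7% of those of Msmo1, chosen here after their values were seen. These shares rest on 19, 33 and 30 counts.

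For Insig2, the retained-intron transcript Insig2-205 held 177 counts in I/R replicate 2, which was 92.2% of the gene there, and none in the other 5 libraries. The coding transcript Insig2-201 had 129, 15 and 124 counts under I/R alone and 138, 115 and 132 after dexmedetomidine. Its edgeR log2 fold change was 0.63 (SE 0.80, unadjusted p 0.466, adjusted p 1), while the gene as a whole had -0.04, and the library with 15 counts lowers the I/R mean of the transcript. Acaca-203 was likewise counted in 1 library, with 72 counts in I/R replicate 3, or 16.8% of Acaca there.

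Elovl6 was counted on 2 coding transcripts, and the minor one is described here after its values were seen. Elovl6-202 had 37, 31 and 34 counts under I/R alone and 24, 18 and 22 after dexmedetomidine, and every I/R + Dex library was below every I/R library. Its edgeR log2 fold change was -0.53 (SE 0.28, unadjusted p 0.113, adjusted p 1), and that of the major transcript Elovl6-205 was -0.04 (SE 0.30, adjusted p 1). Neither passed the test, and the difference between the transcripts was not tested. Of the other transcripts of the list, Cyp51-201 and Mvd-202 were also lower without overlap. Msmo1-202, Ebp-202, Acly-205 and Acaca-209 were higher without overlap, with too few counts to be tested. The share of all transcripts without overlap was not computed. Fdps was counted on the coding Fdps-203, with 29, 1 and 15 counts against 0, 4 and 16, and on the retained-intron Fdps-205, with 2, 12 and 3 against 4, 10 and 3. The coding transcript had at most 4 counts in I/R replicate 2 and in 2 of the 3 I/R + Dex libraries.

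**Figure D5:**
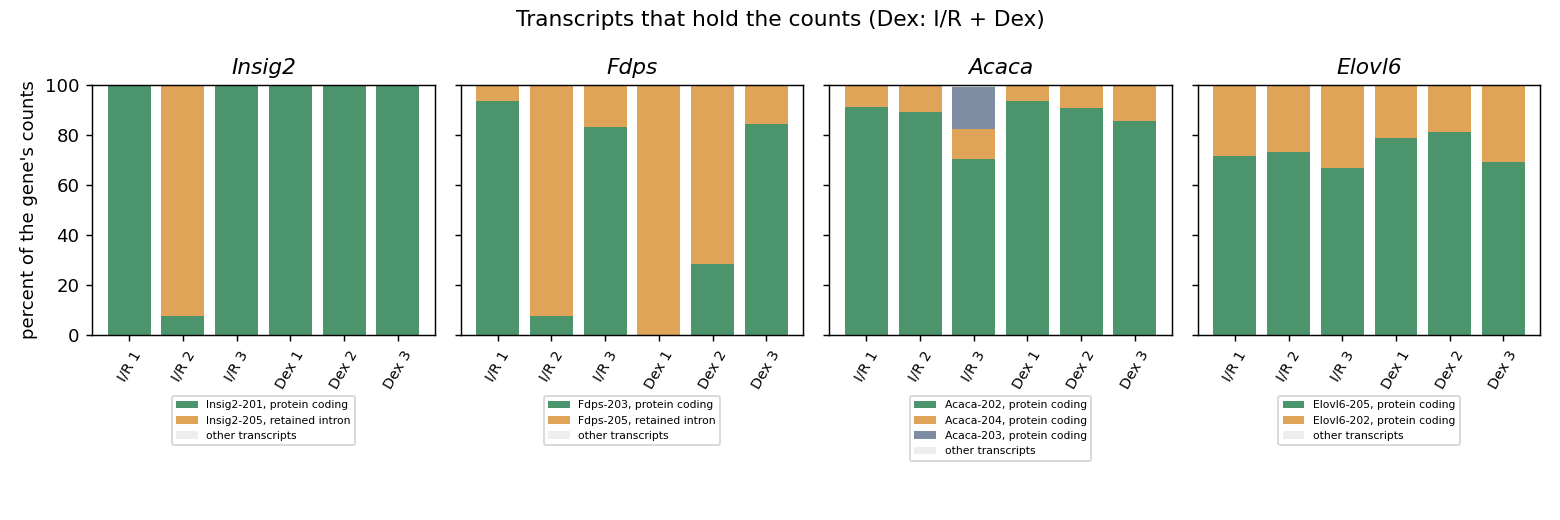
Share of each gene's counts held by its transcripts (vertical axis, percent, stacked) in the 6 libraries, for genes whose transcripts varied between libraries. In I/R replicate 2 the retained-intron transcript Insig2-205 holds 92.2% of the Insig2 counts.

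The authors' deposited table lists 34 transcripts of 29 genes of the list. None of them is marked significant there, and the smallest adjusted p in the authors' deposited table among them is 1, against 104 significant of 18021 transcripts in all. For Acaca-202 the authors' deposited table gives a log2 fold change of -0.22 (p 0.428), and for Acly-203 one of -0.12 (p 0.211).

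Other genes of the same pathways were read from the same fit. Of 36 further sterol genes, which take up, export, store, sense or help to make cholesterol, 25 were tested, 0 passed the threshold, and 14 were above and 11 below 0, with a median log2 fold change of 0.02. The lowest p was that of Cyb5b, a cytochrome b5 of the outer mitochondrial membrane, with 28, 18 and 23 counts under I/R alone and 0, 0 and 8 after dexmedetomidine. Its groups did not overlap, and the edgeR log2 fold change was -2.90 (SE 1.15, unadjusted p 0.0388, adjusted p 1). Nr1h3, which encodes the oxysterol receptor LXR alpha, had 34, 27 and 49 counts against 56, 42 and 74, with an edgeR log2 fold change of 0.78 (SE 0.34, unadjusted p 0.0556, adjusted p 1). Besides Cyb5b, Mbtps2 was lower without overlap, at 75.9 ± 9.4 against 60.5 ± 6.78 CPM (SD, n = 3). Its edgeR log2 fold change was -0.32 (SE 0.16, unadjusted p 0.0753). None of these 25 genes was higher without overlap, against 4.38% higher and 4.94% lower over all tested genes.

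Of 38 further genes of fatty acid and glycerolipid metabolism, 21 were tested, 0 passed the threshold, and 7 were above and 14 below 0, with a median of -0.24. Dgat1, which makes triglyceride from diacylglycerol, had 66, 53 and 34 counts under I/R alone and 17, 2 and 17 after dexmedetomidine. These groups did not overlap, at 18.8 ± 6.17 and 4.82 ± 3.44 CPM (SD, n = 3), and the edgeR log2 fold change was -1.94 (SE 0.64, unadjusted p 0.0188, adjusted p 1). Lpin2, a phosphatidate phosphatase that makes diacylglycerol, had 43, 50 and 32 counts against 20, 11 and 23, with an edgeR log2 fold change of -1.05 (SE 0.36, unadjusted p 0.0206, adjusted p 1). Neither passed the adjustment over all genes. Of the 21 tested genes, Acsl1 and Pparg, named here after their values were seen, were higher in I/R + Dex without overlap, and Dgat1, Lpin2 and Cpt1a were lower. Over all tested genes, 4.38% were higher and 4.94% lower without overlap. Pparg, a nuclear receptor that drives fat storage, had 2845, 3169 and 2687 counts against 2927, 2742 and 2742, or 1070 ± 32 against 1150 ± 24.8 CPM (SD, n = 3), with an edgeR log2 fold change of 0.11 (SE 0.05, unadjusted p 0.0702, adjusted p 1). Acsl1, an acyl-CoA synthetase, had 6.38 ± 1.55 against 10.0 ± 1.87 CPM (SD, n = 3), with an edgeR log2 fold change of 0.65 (SE 0.37, unadjusted p 0.119, adjusted p 1).

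How closely a fold change was bounded depended on the level. For the 6 genes of the list with at least 30 CPM, log2 fold changes had 95% intervals with a median half-width of 0.36, and for the 13 tested genes below 30 CPM it was 1.32. The adjusted p of 1 thus does not show that the groups had equal levels.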

How the data were processed

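The authors deposited gene and transcript counts as whole numbers without normalisation, as their column headers and values show. The authors also deposited FPKM tables and a table of the comparison with log2 fold changes and p-values, per the file headers. HISAT2 2.1.0, StringTie 2.2.4 and DESeq2 1.30 with GRCm39 are named, without roles, per the submitters' processing notes. How reads with several matches were counted was not stated (not given in the sources used here).

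The members and lists were chosen with earlier results of these data known. Gene counts were tested over all genes with edgeR 4.0.16 in R 4.3.3 (robust quasi-likelihood test, filterByExpr, TMM, Benjamini-Hochberg, threshold 0.05), transcripts likewise. Standard errors come from the F statistic. CPM are counts over the library total, given as mean ± SD. Per the labels, the 3 libraries of each group are biological replicates that were made independently. Values per library are given for genes past the threshold, without overlap between groups, with an unadjusted p under 0.1, or among the 3 highest by FPKM of a branch, and for others by counts or ranges. In other lists the 2 genes with the lowest p are named and, after their values were seen, the tested genes without overlap between groups. Alternatives used DESeq2 1.42.0, limma 3.58.1 on counts (voom) and on log2(FPKM + pseudocount), other scalings and filters, each library left out, the replicate number as a term, and counts of pseudogene copies added. Copies were found with blastn 2.17.0 among GENCODE vM21 transcripts. Replicate numbers were checked and did not pair the libraries.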

Additional observations from a re-analysis of the deposited data

How the results depend on the processing

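The number of genes past the threshold over the whole table was 5, and it was 14 with DESeq2, 0 with limma voom, 8 with limma on log2(FPKM + 1) and 3 on log2(FPKM + 0.1) where the mean FPKM was 1 or more, and 0 with the replicate block. With 1 library left out it ranged from 0, without I/R replicate 2, to 4, without I/R replicate 3, and was 3 without each of the other 4. The number of transcripts was 0, and it was 12 with no filter, 74 with DESeq2, and 0 to 3 with 1 library left out, the 3 being reached without I/R replicate 3. The replicate block gave 0 transcripts. Same-numbered libraries had correlations of 0.0234, -0.00961 and -0.00415, so the numbers were not treated as pairs. No gene or transcript of the list passed the threshold in any of these fits. The median log2 fold change of the sterol branch ran from -0.21 to 0.18 and was above 0 under the filter of 1 CPM in 3 libraries, which tests 28 genes of the list, while that of the fatty acid enzymes ran from -0.32 to -0.11. Acaca ran from -0.40 to -0.17, with unadjusted p from 0.0188 to 0.117, and was nearest 0 with the counts of Gm5182 added. Acly ran from -0.16 to -0.10, with unadjusted p from 0.0486 to 0.182, Cyp51 from -2.29 to -0.34, and Scd1 from -1.29 to 0.96. The cause of these shifts was not tested. The 15 untested genes, 13 of them sterol enzymes, had too few counts for the filter, and the cause of their low counts was not tested.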
